A study of Mus musculus with 149 samples.

Results

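The cells compared here are single mouse liver cells, caught in the 2 smaller kinds of Fluidigm C1 capture chip, in which added spike-in RNA made up most of the measured signal, set against cells of the same chips in which it did not. All 149 cells of the study came from the liver of 1 wildtype male C57BL/6 mouse aged 8 weeks. The liver was digested by perfusion in 2 steps, and hepatocytes were enriched by repeated slow spins. The cells were caught on a medium chip (traps of 10 to 17 µm), a small chip (5 to 10 µm) or a large chip (17 to 25 µm), and the ERCC spike-ins, a set of synthetic RNAs, were diluted into the lysis mix. All cells are labelled as isolated primary hepatocytes, and no treatment or genotype differs between them.

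The cells were chosen by their measured spike-in share, the sum of a cell's 92 spike-in rows over the sum of all its rows. Of the 69 cells of the smaller chips, 50 had a share of 50% or more (23 medium and 27 small) and are called high spike-in cells. The other 19 (7 medium and 12 small) are called low spike-in cells. Since the share set the groups, the following shares describe them and are not a result. The share had a median of 86.7% in high and 6.12% in low spike-in cells of the medium chip, and of 89.5% in high and 28.1% in low spike-in cells of the small chip. Just inside the threshold lay medium cells at 52.1% and 57.4% and small cells from 50.4%, and just outside it lay medium cells from 35.1% downward and small cells at 48.98% and 48.89%. The low group was mixed, since 4 of the 7 medium and 4 of the 12 small cells had shares under 10%.

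A fixed amount of spike-in RNA per capture takes a larger share of the reads when a trap holds less cellular RNA. Fewer or smaller cells, less RNA per cell and a less efficient reaction cannot be told apart here. Hepatocytes are large cells that devote much of their messenger RNA to secreted proteins: albumin, apolipoproteins, clotting factors and, in male mice, the major urinary proteins, which carry pheromones into the urine. The proteasome degrades tagged proteins, and mitochondrial ribosomes translate the few proteins encoded by mitochondrial DNA. These housekeeping machines are made from many messenger RNAs of moderate abundance.

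To compare composition rather than amount, each cell was rescaled to the same sum of mouse-gene values, 1000000 units, and levels below are in these units. They are not per gene length, so levels are not compared between genes. All cells are from 1 mouse and each chip is 1 sample, so cells are not replicates. No test was run, and each result is a log2 ratio of mean values, high over low spike-in cells, given for each chip. A gene is called higher or lower where that ratio, with 1 added to each mean, is at least 1 or at most -1 in both chips, a 2-fold difference. Of 20308 mouse genes, 6423 were above 0 in at least 20% of the 69 cells and are called measured.

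**Figure D1:**
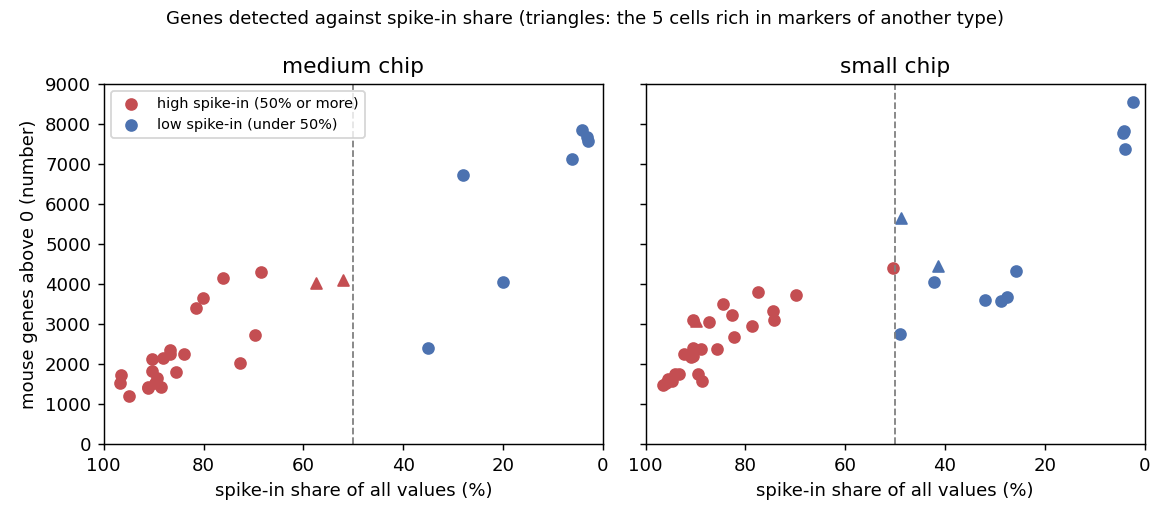
Number of mouse genes above 0 (vertical axis) against the spike-in share in percent (horizontal axis, high shares on the left) for each cell of the medium chip and the small chip; the dashed line is the 50% threshold, red marks high and blue low spike-in cells. High spike-in cells reach at most 4291 genes on the medium and 4391 on the small chip, while low spike-in cells reach 7846 and 8543.

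High spike-in cells showed fewer genes. The share that set the groups depends on a cell's mouse-gene signal. The gene numbers and the concentration of signal below therefore describe the groups, as the shares do. On the medium chip they had 1215 to 4291 mouse genes above 0 (median 2120), against 2413 to 7846 (median 7107) in low spike-in cells. On the small chip they had 1488 to 4391 (median 2372), against 2745 to 8543 (median 4389.5) in low spike-in cells. The ranges overlapped on both chips, although 16 of 23 medium and 16 of 27 small high spike-in cells lay below every low spike-in cell of their chip. The number of spike-ins above 0 hardly differed, with medians of 46 in high and 45 in low cells of the medium chip and of 47 in high and 45.5 in low cells of the small chip. The signal was also more concentrated: the 100 leading genes of a cell held a median of 79.2% of mouse-gene values in high and 65.4% in low cells of the medium chip, and 84.8% in high and 64.2% in low cells of the small chip.

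In 5 of the 69 cells at least 10 markers of another liver cell type were above 0, with a summed level of at least 1000 units. Medium high spike-in cells 1 and 4 had 17 and 18 of 18 Kupffer cell and macrophage markers above 0, with a summed level of 25249 and 44314 units. They held 1581 and 4571 units of Clec4f, a lectin of Kupffer cells, 4158 and 8819 of Cd5l, a protein secreted by macrophages, and 6500 and 5544 of Alb, the albumin gene. Small low spike-in cell 1 had all 18 of these markers, summing to 53698, with 7443 of Clec4f and 748 of Alb. Small low spike-in cell 39 had all 18 endothelial markers at a summed level of 15154, among them 2061 of Kdr, a receptor for vascular growth factor, and 1266 of Stab2, a scavenger receptor of sinusoidal endothelium, and it had 2024 of Alb. Small high spike-in cell 19 had 12 endothelial markers, at 2990 in all, beside 11711 of Alb and 410731 of the major urinary proteins. The major urinary proteins summed to 103511 and 78891 in medium cells 1 and 4. They summed to 143458 in small cell 39 and to 15752 in small cell 1.

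In the other 64 cells the summed macrophage level was at most 503 units in high and 72.2 in low cells of the medium chip, and at most 249 in high and 10.0 in low cells of the small chip. A single cell among them had at most 8 of the 18 macrophage markers in high and 8 in low cells of the medium chip, and at most 11 in high and 10 in low cells of the small chip. The macrophage markers at 0 in every cell numbered 6 in high and 6 in low cells of the medium chip and 2 in high and 4 in low cells of the small chip, Marco and Ptprc in all these groups. Of the 7 macrophage markers measured, none was higher in both chips with all cells (medians of 7.49 and -7.20) and 3 were higher without the 5 cells (medians of 1.25 and 1.42). The summed endothelial level was at most 240 in high and 84.0 in low cells of the small chip and 173 in low cells of the medium chip, while 1 medium high spike-in cell reached 4821. Macrophage-rich cells sit in the high group of the medium chip and in the low group of the small chip. Results are given with all cells, and without these 5, a choice made after seeing the data, where that moved a list or a call. The part of other cell types in the results was not tested.

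Of the 6423 genes measured, 348 were higher in high spike-in cells in both chips (5.42%) and 1147 were lower (17.9%). The counts without the 5 cells were 391 and 1238, of which 290 and 996 were shared with the first. Within the medium chip alone, 24.8% were higher and 34.1% lower, and within the small chip 17.4% were higher and 44% lower. Of the 1592 genes higher and 2191 lower on the medium chip, 348 and 1147 were so on the small chip too. Most of this overlap would also arise between unrelated chips, since 17.4% of all genes measured were higher and 44% lower on the small chip. A call in both chips is therefore not by itself agreement between them. Across genes the ratios of the chips were weakly related (Spearman's rho 0.11 over 6423 genes, 0.19 without the 5 cells), where genes share cells and depth and are not independent. The median log2 ratio of all genes measured was -0.23 on the medium and -0.68 on the small chip, and list medians below stand beside these values. Without the 5 cells it was -0.45 and -0.42, and list medians without the 5 cells stand beside those. Of the genes called, 23.3% were higher; this share was 37.5% when the 50 genes of highest mean were left out of the rescaling sum, which moved the median of all genes to -0.25 and -0.14, and 2.37% with the deposited values left unscaled, where the medians were -1.20 and -2.13. It was 1.23% with differences of mean log2 values. Without every cell that had at least 3 markers of another type, which left 2 medium and 3 small low spike-in cells, more genes were higher than lower (867 and 691, 55.6% higher).

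**Figure D2:**
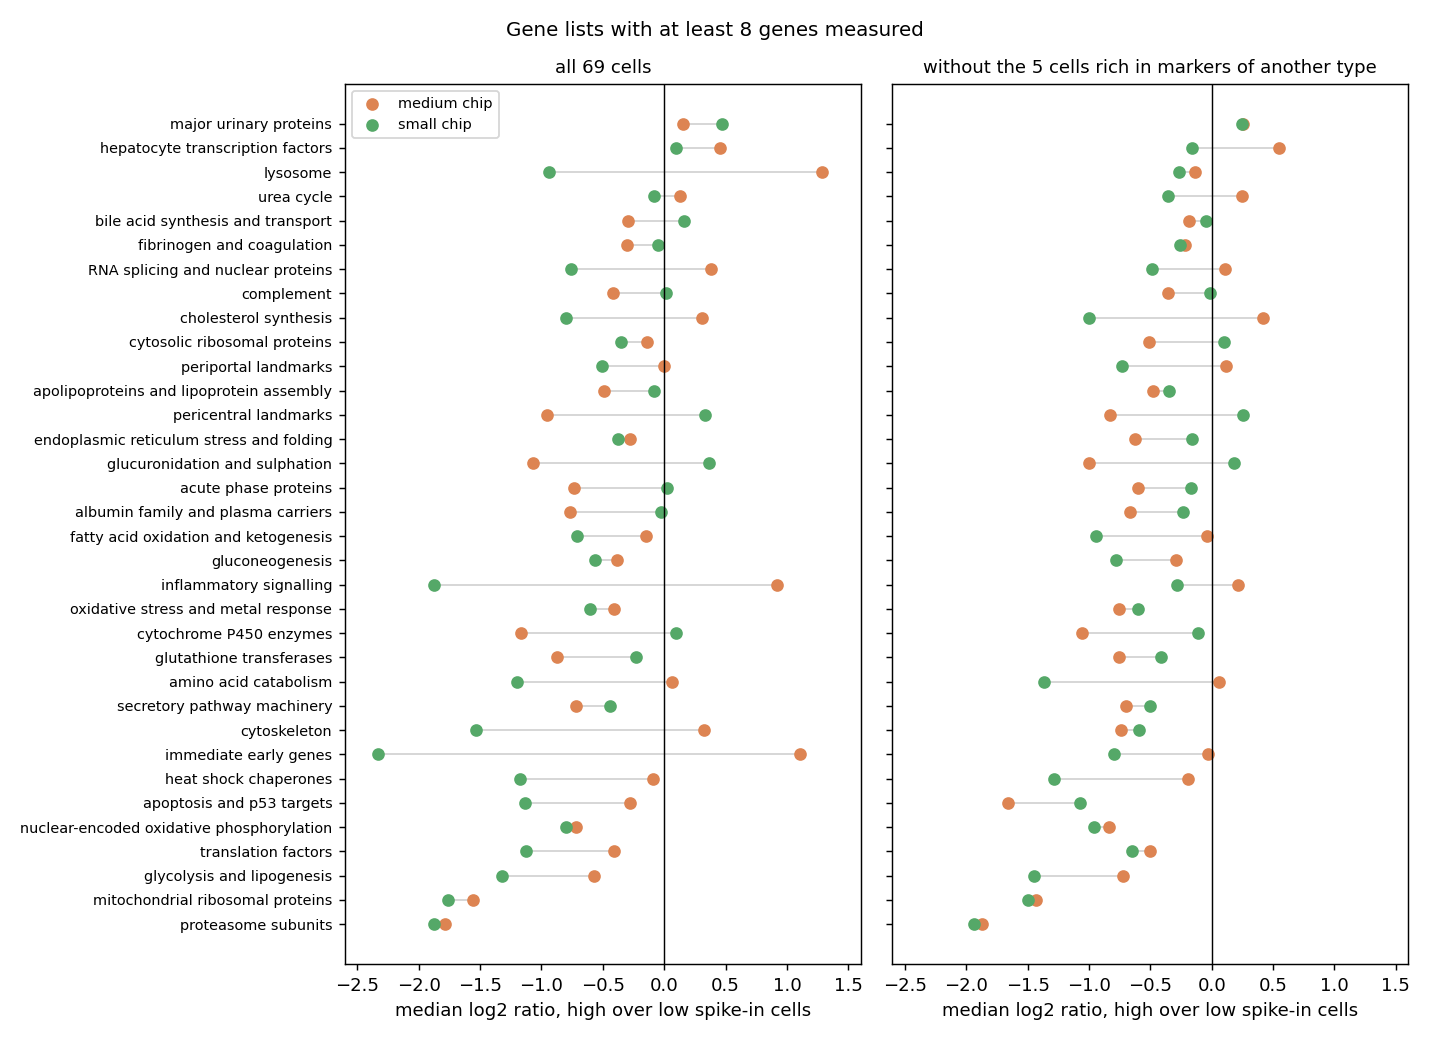
Median log2 ratio, high over low spike-in cells, of each pathway list with at least 8 genes measured, on the medium chip (orange) and the small chip (green), with all 69 cells (left) and without the 5 cells rich in markers of another type (right). Proteasome subunits, at -1.79 and -1.88, and mitochondrial ribosomal proteins, at -1.56 and -1.76, lie below -1 in both chips in both panels, whereas the lysosome list, at 1.28 and -0.94 with all cells, lies at -0.14 and -0.27 without the 5.

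Of the 30 proteasome subunit genes listed, all measured, 15 were lower in high spike-in cells of both chips and none was higher, with median log2 ratios of -1.79 and -1.88 (-1.87 and -1.94 without the 5 cells, with 14 lower). Their summed level on the medium chip ran from 17.5 to 5157 units (median 917) in high spike-in cells, against 1967 to 4233 (median 3677) in low spike-in cells. The small chip gave 58.6 to 4751 (median 446) in high spike-in cells, against 1982 to 5778 (median 3055) in low spike-in cells. Thus 15 of 23 medium and 25 of 27 small high spike-in cells lay below every low spike-in cell of their chip, and some high spike-in cells lay within or above the low range.

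Psma6, which encodes a subunit of the outer ring of the catalytic core, had 0 to 10.5 units (median 0) in medium high spike-in cells, against 20.9 to 324 (median 247) in medium low spike-in cells. The log2 ratio of means was -6.49, and the genes named from this list were picked for the size of their ratios. Psma6 on the small chip had 0 to 306 (median 0) in high and 0 to 330 (median 139) in low spike-in cells, a ratio of -3.17. Psmb7, a catalytic subunit, was above 0 in 4 of 23 high and 6 of 7 low cells of the medium chip and in 4 of 27 high and 11 of 12 low cells of the small chip, with ratios of -4.44 and -3.32. For comparison, the median share of all measured genes above 0 per cell was 30.4% in high and 86.6% in low cells of the medium chip. On the small chip this share was 33.9% in high and 57.04% in low cells. Psma5, another core subunit, had ratios of -3.24 and -5.48, and Psmb6, also catalytic, of -7.17 and -1.78.

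Of 33 mitochondrial ribosomal protein genes measured, 17 were lower in both chips and 1, Mrps14, was higher, with medians of -1.56 and -1.76 (-1.43 and -1.49 without the 5 cells, with 16 lower). Their summed level on the medium chip was 6.64 to 3991 units (median 494) in high and 1325 to 2002 (median 1613) in low spike-in cells. Small-chip sums were 14.4 to 3901 (median 275) in high and 293 to 4165 (median 1273) in low spike-in cells. High spike-in cells were spread widely, with 15 of 23 on the medium and 14 of 27 on the small chip below every low spike-in cell, and 6 medium ones above every low one. Mrpl30, a protein of the large subunit, was above 0 in 6 of 23 high and 7 of 7 low cells of the medium chip and in 4 of 27 high and 11 of 12 low cells of the small chip, with ratios of -3.52 and -4.30. On the medium chip the Mrpl30 counts were near the shares of all measured genes given above. Mrpl33, of the same subunit, was at 0 in all 27 high spike-in cells of the small chip and above 0 in 11 of its 12 low ones.

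Nuclear genes of oxidative phosphorylation, which encode respiratory chain and ATP synthase subunits, differed less. Of 68 measured, 12 were lower in both chips and none higher, a share near the 17.9% of all genes, with medians of -0.72 and -0.80 (16 lower, -0.84 and -0.96, without the 5 cells). Ndufb10, a complex I subunit, had ratios of -2.38 and -4.86, and Atp5g2, which encodes the membrane ring subunit of ATP synthase, of -4.58 and -2.55. Cytosolic ribosomal protein genes had medians of -0.14 and -0.35 over 79 measured, 7 of them lower. Without the 5 cells their medians were -0.51 and 0.10, beside -0.45 and -0.42 for all genes. Their small-chip median changed sign, but it stood above that of all genes in both settings. Translation factors had medians of -0.41 and -1.13, with 3 of 22 lower, and of -0.51 and -0.65, with 1 lower, without the 5 cells.

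**Figure D3:**
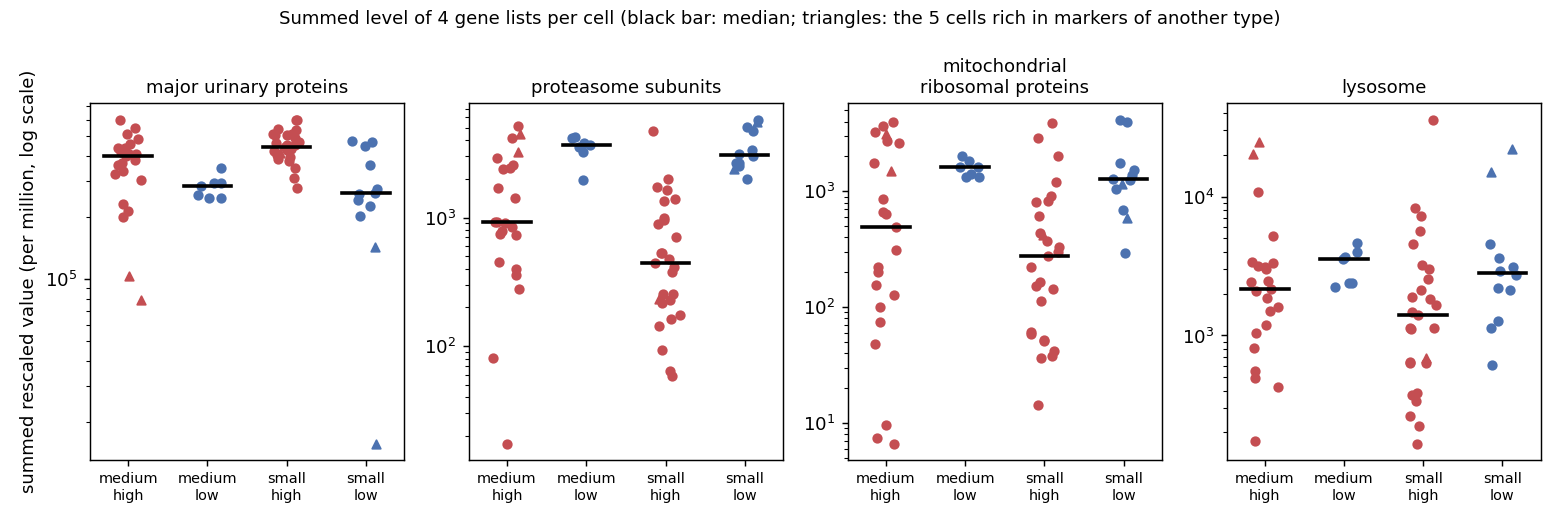
Summed rescaled value per cell (units of 1000000 a cell, log scale) of 4 gene lists, by chip, with high spike-in cells (red) left of low spike-in cells (blue), medians as black bars and the 5 cells rich in markers of another type as triangles. Proteasome sums of 25 of 27 small-chip high spike-in cells lie under all 12 low spike-in cells, and the highest low-group lysosome values on the small chip are 2 triangles.

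Genes of the major urinary proteins filled more of the signal in high spike-in cells of both smaller chips at the median, with overlap. Their summed level on the medium chip was 78891 to 600135 units (median 398385) in high and 247552 to 350312 (median 283844) in low spike-in cells. Small-chip sums were 277283 to 596090 (median 439611) in high and 15752 to 473398 (median 261763) in low spike-in cells, where all 27 high spike-in cells lay above the median of the low group. The lowest medium high and small low values were macrophage-rich cells. Without the 5 cells the lowest values were 200297 in high and 247552 in low cells of the medium chip and 277283 in high and 203267 in low cells of the small chip, with medians of 406729 in high and 283844 in low and of 445338 in high and 269260 in low cells. On the large chip the medians were 369451 in 16 high and 350510 in 64 low spike-in cells, closer than on the other chips. The 17 measured genes had list medians of 0.15 and 0.47, with 1 higher (Mup15) and 1 lower (Mup4). Alb averaged 32908 ± 18210 units in high and 32295 ± 20372 in low cells of the medium chip (SD over 23 and 7 cells). It averaged 26849 ± 19689 in high and 27547 ± 19600 in low cells of the small chip (SD over 27 and 12 cells), and the log2 ratios were 0.03 and -0.04.

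Mup15 was above 0 in all 50 high spike-in cells. It was above 0 in 2 of 7 medium and 6 of 12 small low spike-in cells. On the medium chip it had 9885 to 148622 units (median 41208) in high and 0 to 35874 (median 0) in low spike-in cells, and on the small chip 1531 to 101574 (median 51267.5) in high and 0 to 36530 (median 48.7) in low spike-in cells. The log2 ratios were 2.59 and 2.63. Mup genes are near-identical copies, so the share of reads given to each one by the authors' counting is uncertain. On the large chip the Mup15 ratio was 0.05.

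Other hepatocyte lists stood near all genes or differed between the chips. The plasma carriers (medians of -0.77 and -0.03, 1 of 17 lower), coagulation genes (-0.31 and -0.05, 0 of 18 either way) and complement genes (-0.42 and 0.01, 1 higher and 1 lower of 20) had fewer genes called lower than the 17.9% of all genes. By summed level, coagulation genes had a median of 14842 in high and 33246 in low cells of the medium chip, where all 23 high cells lay below the median of the low group, and of 22119 in high and 19955 in low cells of the small chip. The plasma carriers summed to a median of 77032 in high and 115900 in low cells of the medium chip, with 21 of 23 high cells below the low median, and to 89503 in high and 101860 in low cells of the small chip. Of 15 apolipoprotein and lipoprotein assembly genes (medians of -0.49 and -0.08), 3 were lower and 1, Mttp, which loads lipid onto apolipoprotein B, was higher. Apoa1, the main protein of HDL, was lower, with 6516 in high and 17998 in low cells of the medium chip and 6244 in high and 14291 in low cells of the small chip on average (ratios of -1.47 and -1.19). Apoh was also lower (-2.63 and -1.11). Cytochrome P450 genes had 6 of 28 lower, with medians of -1.17 and 0.09.

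Several regulators and stress genes were called, beside 5.42% higher and 17.9% lower of all genes. Of 16 hepatocyte transcription factors measured, 3 were higher and 2 lower (4 and 2 without the 5 cells). Of 11 apoptosis and p53 target genes, 4 were lower (5 without the 5 cells). Of 16 oxidative stress and metal response genes, 4 were lower (3 without the 5 cells). Neither of these last lists had a higher gene. Cebpb, an injury- and inflammation-responsive transcription factor of hepatocytes, was above 0 in 21 of 23 high and 7 of 7 low cells of the medium chip and had 0 to 1007 units (median 148) in high and 10.8 to 63.99 (median 27.9) in low ones. On the small chip it had 0 to 1354 (median 93.8) in high and 10.9 to 324 (median 27.4) in low spike-in cells, and the ratios were 2.92 and 2.02. Nr1h4, the bile acid receptor, was lower (-3.93 and -2.10). Trp53inp1, a target of the tumour suppressor p53, was lower, with medians of 4.49 in high and 153 in low cells of the medium chip and 3.96 in high and 155 in low cells of the small chip (ratios of -3.60 and -2.57). Prdx1, a peroxide-reducing enzyme, was lower as well (-1.78 and -1.47), with 23 of 23 and 27 of 27 high spike-in cells above 0.

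The lysosome, immediate early and inflammatory lists pointed in opposite directions on the chips. The lysosome list had medians of 1.28 on the medium and -0.94 on the small chip, immediate early genes of 1.10 and -2.33 and inflammatory signalling genes of 0.92 and -1.87. Without the 5 cells the medians were -0.14 and -0.27 for the lysosome list, -0.03 and -0.80 for immediate early genes and 0.21 and -0.28 for inflammatory signalling. The summed lysosome level was 24770 and 20312 units in the 2 macrophage-rich medium high cells, against at most 4629 in medium low cells. On the small chip it was 22006 in macrophage-rich low cell 1 and 15024 in endothelial-rich low cell 39, and at most 4583 in the other low cells. A small high spike-in cell outside these 5 reached 35906.

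The 15 genes that led the higher list were picked by rule: above 0 in at least 50% of high spike-in cells of each chip, a mean above that of the median gene, and the largest values of the smaller of both chips' ratios. Their ratios on these chips describe that choice. They are Runx2, Clrn1, Cacng4, Mylk4, Gm20594, Gcm1, Gm10408, Wdr37, Rhox8, Cplx2, Nhlh2, Ugt1a9, Tfap2a, Gpc6 and Mup15. Most are known from tissues other than liver: Runx2 is the transcription factor of bone formation, Gcm1 one of placenta, Nhlh2 one of neurons, Tfap2a one of neural crest and skin, Cplx2 a protein of synapses, Cacng4 a subunit that accompanies neuronal ion channels and Clrn1 a protein of sensory hair cells. In 11 of the 15, some GENCODE transcript holds a run of at least 60 bases made only of purines (A, G) or only of pyrimidines (C, T). Such a run occurs in 357 of the 6147 measured genes with a transcript in the annotation (5.81%). This feature was looked for after these genes had been seen.

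The following 30-base windows, from GENCODE M21 transcripts on the mm10 assembly, show such runs in some of the 11 genes. They are written 5′ to 3′ along the transcript, and capitals mark bases in a perfect repeat of AAG or its complement CTT. Only 6 of the 15 named genes hold such a repeat of at least 18 bases.
Runx2 (chr17:44605113-44605142, minus strand, 3′ UTR): TTCTTCTTCTTCTTCTTCTTCTTCTTCTTC
Mylk4 (chr13:32703422-32703451, minus strand, 3′ UTR): TTCTTCTTCTTCTTCTTCTTCTTCTTCTTC
Gcm1 (chr9:78065453-78065482, plus strand, 3′ UTR): AAGAAGAAGAAGAAGAAGAAGAAGAAGAAG
Rhox8 (chrX:37878326-37878355, minus strand, coding): GAAGAAGAAGAAGAAGAAGAAGAAGAAGAA
Cacng4 (chr11:107733788-107733817, minus strand, 3′ UTR): aaggaagaaaggaagaaagaaagaaagaaa

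Runx2 had 0 to 145 units (median 10.8) in high and 0 to 2.45 (median 0) in low cells of the medium chip, and 0 to 434 (median 23.3) in high and 0 to 21.8 (median 0.20) in low cells of the small chip. It was above 0 in 14 of 23 and 22 of 27 high spike-in cells and in 3 of 7 and 6 of 12 low spike-in cells, with ratios of 4.03 and 4.24. Gcm1 had 0 to 103 (median 14.9) in high and 0 to 3.52 (median 0.26) in low cells of the medium chip, and 0 to 436 (median 45.1) in high and 0 to 26.5 (median 1.05) in low cells of the small chip. The groups overlapped in both genes, and the highest values were all in high spike-in cells.

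Mylk4, a kinase of the myosin light chain family, had ratios of 3.48 and 4.03, and Rhox8, a homeobox gene of the reproductive tract, of 3.70 and 3.10. In the large chip, whose cells the choice of genes did not use, Runx2 had a ratio of 3.80, Gcm1 of 3.45, Mylk4 of 4.28 and Rhox8 of 2.73. Of the 15 genes, 13 had a ratio of at least 1 there, where 11.3% of all genes measured were higher and 46% lower. All 15 kept a ratio of at least 1 in both smaller chips when the highest cell of each group was left out gene by gene, and also without the 5 cells. The genes were picked for large ratios in these same cells, so this describes the choice. Except for Gm20594, Mup15, Wdr37 and Ugt1a9, their means in medium high spike-in cells were at most 60.9 units (Gm10408).

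**Figure D4:**
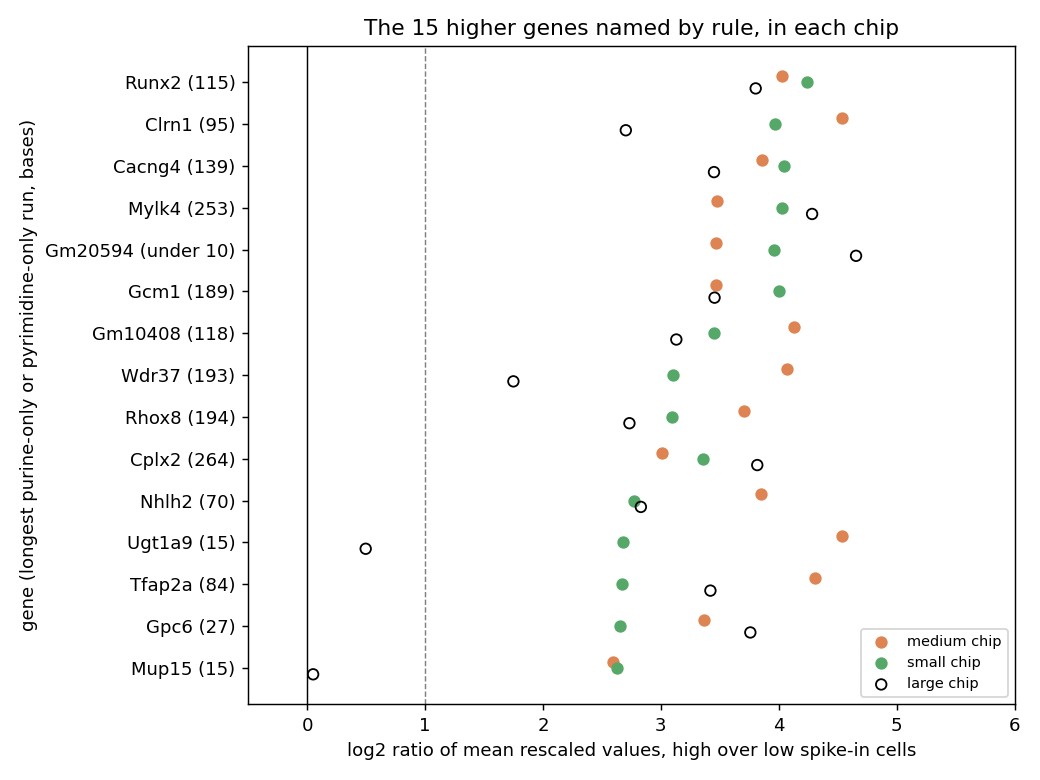
Log2 ratio of mean rescaled values, high over low spike-in cells, of the 15 higher genes named by rule, on the medium chip (orange), the small chip (green) and the large chip (open circles); the number beside each gene is the longest purine-only or pyrimidine-only run in its transcripts, in bases. Runs reach 264 bases in Cplx2 and 253 in Mylk4, and Ugt1a9 and Mup15 alone fall below a ratio of 1 on the large chip.

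Over all measured genes with a transcript the medians on the smaller chips were higher in classes of longer runs, although gene by gene the relation was weak (rho 0.09 and 0.09 over 6147 genes). Genes whose longest run was under 20 bases (3022) had medians of -0.38 and -0.79 on the medium and small chips, with 4.40% higher and 19.03% lower in both. Genes with a run of 60 bases or more (357) had medians of 0.25 and 0.14, with 14.3% higher and 13.2% lower. The 22 measured genes with a perfect AAG or CTT repeat of at least 40 bases, on either strand, had medians of 1.81 and 2.08, with 10 higher and 1 lower, and 1.98 on the large chip. Such genes could pass the detection filter through the 50 high spike-in cells, so these values describe the genes that passed and support no statement on repeat genes at large. All 34 repeat genes above 0 in any of the 69 cells, of 57 in the table, had medians of 0.76 and 0.45. Of all genes measured, 0.846% held such a repeat of at least 18 bases (AAG repeated 6 times, or CTT on the other strand). Since 6 of the named genes are among those 22 and prompted the search, the values were also read without them.

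With the named genes left out, 16 genes with a repeat of at least 40 bases had medians of 0.78 and 0.59 and of 0.61 on the large chip, with 4 higher and 1 lower. The repeat genes were mostly genes of low level. Among genes under 10 units in low spike-in cells of the large chip, runs of 60 bases or more went with 23.5% higher and 4.92% lower (183 genes), and runs under 20 bases with 7.76% higher and 10.9% lower (773 genes). Among genes at 10 units or more, the shares were 4.60% higher for long runs and 3.25% higher for short ones, and 21.8% lower for each. The 5 repeat genes of the higher level class had medians of 0.07 and -1.03. Among the genes that passed the detection filter, the higher medians were found in genes of low level. Genes of any of these classes, and of the run classes above, could pass that filter through the 50 high spike-in cells. The shares and medians therefore describe the genes that passed and support no statement on long runs at large.

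In a typical cell, 21.1% of the 57 repeat genes of the table were above 0 in high and 28.1% in low spike-in cells of the medium chip, and 22.8% in high and 26.3% in low ones of the small chip. Over all measured genes the same medians were 30.4% in high and 86.6% in low cells of the medium chip and 33.9% in high and 57.04% in low cells of the small chip. The measured genes had passed a detection filter and the 57 repeat genes had not, so these shares are not comparable. The summed level over the 22 genes did not separate the groups, with medians of 1342 units in high and 1307 in low cells of the medium chip and of 2075 in high and 1446 in low cells of the small chip. Pigr and Itih4, both among the 22, made up most of that sum. On the medium chip they averaged 1120 and 509 in high cells (mean sum 1964) and 1066 and 642 in low cells (1790). On the small chip they averaged 884 and 1068 in high cells (mean sum 2625) and 1585 and 391 in low cells (2190). The sum therefore cannot show whether the other repeat genes differed.

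**Figure D5:**
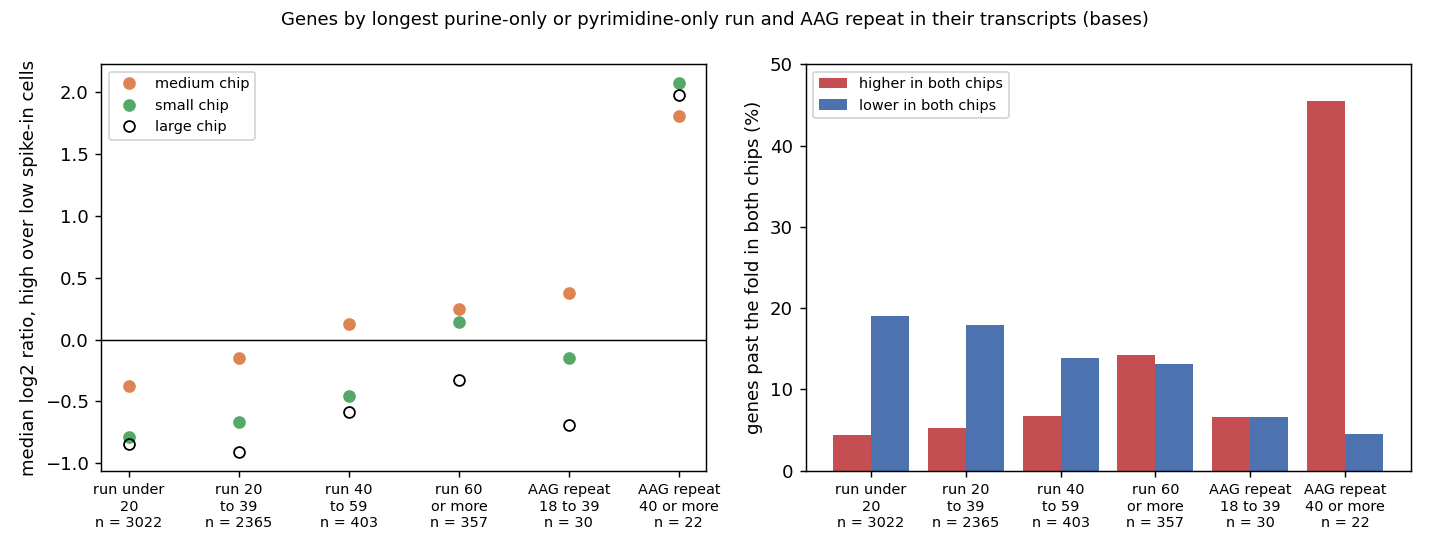
Genes grouped by the longest purine-only or pyrimidine-only run in their transcripts, with genes holding an AAG or CTT repeat shown again as 2 groups: median log2 ratio by chip (left) and the percentage of genes higher (red) or lower (blue) in both smaller chips (right). The 22 genes with a repeat of 40 bases or more have medians of 1.81, 2.08 and 1.98 on the medium, small and large chips.

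Gm20594 was higher in high spike-in cells of all 3 chips. It is a short gene on chromosome 6, and it was above 0 in all 69 cells. On the medium chip it had 315 to 76286 units (median 32174) in high and 548 to 9600 (median 1575) in low spike-in cells. On the small chip it had 2827 to 117285 (median 30008) in high and 457 to 13002 (median 1954) in low spike-in cells. The groups overlapped, the log2 ratios were 3.47 and 3.95, and the large chip gave 4.65.

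Its transcript resembles the mitochondrial large-subunit ribosomal RNA, mt-Rnr2. Over 439 aligned columns 88.4% were identical, and no other measured gene had a transcript that aligned to mt-Rnr2 over 100 columns or more. The table has no gene of the mitochondrial genome itself. The aligned part of the Gm20594 coding sequence is shown beside the mitochondrial one because of this likeness; capitals mark the bases that differ, and 95.05% of the columns of this stretch were identical.
Gm20594 (chr6:79818251-79818350, plus strand, coding): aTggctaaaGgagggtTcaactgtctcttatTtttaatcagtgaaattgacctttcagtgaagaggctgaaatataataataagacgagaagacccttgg
mt-Rnr2 (chrM:2070-2170, plus strand, ribosomal RNA): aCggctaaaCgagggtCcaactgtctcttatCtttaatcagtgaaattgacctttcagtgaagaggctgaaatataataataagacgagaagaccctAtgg
Whether the Gm20594 value counts mitochondrial ribosomal RNA was not tested.

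The 15 genes that led the lower list by the same rule are Naa20, Mrap, Tsg101, Mrpl49, Zdhhc6, D17Wsu104e, Slc35d2, Hacl1, Cyp2d22, Cope, Ugt1a1, Arhgdia, Nit1, Eif2b1 and 0610011F06Rik. Hacl1, a peroxisomal enzyme that shortens branched fatty acids, had 0 to 221 units (median 0) in high and 16.8 to 534 (median 168) in low cells of the medium chip, and 0 to 35.1 (median 0) in high and 0 to 333 (median 78.2) in low cells of the small chip. Its ratios were -3.97 and -4.07. 0610011F06Rik had 0 to 12.5 (median 0) in high and 48.4 to 176 (median 105) in low cells of the medium chip. For the small chip its values were 0 to 38.97 (median 0) in high and 0 to 171 (median 68.9) in low cells. The ratios of 0610011F06Rik were -5.34 on the medium and -3.78 on the small chip. Cope, which encodes a coat protein of transport vesicles, was above 0 in 6 of 23 high and 6 of 7 low cells of the medium chip and in 7 of 27 high and 11 of 12 low cells of the small chip (-5.70 and -3.90). On the medium chip the Cope counts were near the shares of all measured genes.

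For other genes of this list 1 cell carried the low group. More than 50% of the low-group total came from 1 cell in 8 of the 15 genes on the medium chip and in 11 on the small chip. Naa20, a subunit of an enzyme that acetylates protein starts, had 0 to 35.1 units (median 0) in high and 0 to 932 (median 20.6) in low cells of the medium chip. Its ratios were -5.44 and -5.09, and -3.03 and -2.02 without the highest cell of each group, and -1.66 on the small chip without the 5 cells. With a share threshold of 30% its direction turned, to a mean of both chips' log2 ratios of 1.53. Eif2b1, a subunit of a translation initiation factor, had ratios of -5.26 and -3.82, and of -3.47 and 0.87 without the highest cells, so its call rested on 1 small low spike-in cell. The other 14, picked for large ratios in these same cells, kept a ratio of at most -1 in both chips. In the large chip 14 of the 15 had a ratio of at most -1, where 46% of all genes measured did.

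Ugt1a1, the enzyme that conjugates bilirubin, was lower, at 0 in all 23 medium high spike-in cells and above 0 in 4 of 7 medium low ones (ratios of -6.43 and -3.85), while Ugt1a9, a related enzyme, was higher (4.54 and 2.68). These genes share their downstream exons, so the split of reads between them is uncertain. On the medium chip 79.7% of the Ugt1a9 total of high spike-in cells came from 1 cell. Its large-chip ratio was 0.50.

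The large chip, split at the same share into 16 high and 64 low spike-in cells, gives the same comparison in cells that the choice did not use. Of the 1147 genes lower in both smaller chips, 61.5% had a ratio of at most -1 there, against 46% of all genes. Of the 348 higher genes, 28.4% had a ratio of at least 1, against 11.3% of all genes, and 30.2% had a ratio of at most -1. The proteasome list had a median of -0.57 there, against -0.85 for all genes, so its place below all genes on the smaller chips was not seen on the large one. The mitochondrial ribosomal list had -1.05.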

How the data were processed

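Single cells of 1 mouse were measured by RNA sequencing on C1 chips. The deposited table holds 1 signal value per gene and cell, which the authors had normalised: values have 2 decimals and are neither counts nor per-million values. Bowtie 0.12.9, RSEM 1.2.3, CASAVA 1.8.2 and the mm10 build are named in the submitters' processing notes. The deposited table's name mentions SCnorm, a normalisation method for single cells; its settings and the annotation are not given in the sources used here. Read depth is unknown and whole reads could not be recovered, so no interval, floor or count test is given. Since the authors' normalisation could act differently on sparse cells, low values are uncertain.

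Each cell was rescaled to the same sum of mouse-gene values. Ratios of group means were computed with a pseudocount of 1 for genes above 0 in at least 20% of the 69 cells, which understates changes of low genes. Cells of 1 mouse are not replicates, so there is no p-value. Named genes were the 10 with the highest mean in high spike-in cells, the 15 per direction described in the report, and up to 4 per gene list with the largest mean ratio; Mrps14, Marco, Ptprc, Clec4f, Cd5l, Kdr and Stab2 were named after their values were seen. Members and lists were chosen with earlier results of these data known. Of 990 list entries, 21 were not matched. The calculation was tested on simulated data with planted differences in genes of higher level and only random counting differences between cells. That checks the computation and not how reliable the calls are in sparse, uneven cells. Transcript sequences came from GENCODE M21, matched by symbol for 6147 of 6423 genes, and were aligned with blastn 2.17.0. No columns were identical. Alternatives were other pseudocounts, filters, scalings, means, share thresholds, pooled chips and sets of cells.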

Additional observations from a re-analysis of the deposited data

Results flagged for a closer look

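In the 7 low spike-in cells of the medium chip, a cell, not always the same one, stood far from the rest in 20 of 39 measures checked. Chance flags about 1 in 20, but nearly all of these measures are genes named for their extreme ratios, so the count cannot be read against that rate. For spike-ins above 0 the lowest cell had 40. Among the lower genes named by rule the highest cell had 932 units of Naa20, 599.8 of Mrap, 1728 of Zdhhc6, 1905 of D17Wsu104e, 280.5 of Slc35d2, 534 of Hacl1, 1196 of Cyp2d22, 974 of Arhgdia, 94.3 of Nit1 and 481 of Eif2b1. Among the higher genes the highest cell had 1.13 of Clrn1, 8.34 of Cacng4, 9600 of Gm20594, 17.7 of Gm10408, 3.65 of Rhox8, 10.7 of Cplx2, 2.22 of Nhlh2, 51.2 of Ugt1a9 and 4.73 of Gpc6.

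In 4 of the lists with at least 5 genes measured the medians were at least 0.9 from 0 in opposite directions on the chips, a limit set after the values were seen, and these differences were not tested. Other lists, such as the cytoskeleton (0.32 and -1.54), also differed in sign, with 1 of the medians nearer 0. Without the 5 cells the cytoskeleton medians were -0.74 and -0.59. The medium minus small difference of the list medians was 3.44 on the log2 scale for immediate early genes, 2.79 for inflammatory signalling, 2.22 for the lysosome and 14.7 for the Kupffer cell and macrophage markers, whose medians without the 5 cells were 1.25 on the medium and 1.42 on the small chip.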

How the results depend on the processing

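The 348 higher and 1147 lower genes became 133 and 596 with a pseudocount of 10, 136 and 247 among genes above 0 in at least 50% of cells (1967 genes), and 63 and 2591 with the deposited values left unscaled. They became 34 and 2739 with differences of mean log2 values, 1164 and 2180 with the cells of both chips pooled, and 867 and 691 without all cells with at least 3 markers of another type, which left 2 medium and 3 small low spike-in cells. With no filter beyond 1 cell above 0 there were 1857 lower genes. Higher genes numbered 585 when the 50 leading genes were left out of the scaling and 205 without the highest cell of each group. The other alternatives stayed within 1.5 times of the main counts. Chip by chip, leaving out the 5 cells changed the sign of several list medians. On the medium chip these included the lysosome (1.28 to -0.14), immediate early (1.10 to -0.03) and cytoskeleton lists (0.32 to -0.74). On the small chip they included the macrophage markers (-7.20 to 1.42) and cytosolic ribosomal proteins (-0.35 to 0.10). For the mean of both chips, Naa20 turned to 1.53 with a 30% share threshold. Eif2b1 turned on the small chip, to 0.87, without the highest cells. Causes were not tested. No paired analysis was possible because the numbers of the cells name captures and each chip is 1 sample. Unknown depth, 7 and 12 low spike-in cells and a single mouse limit every value.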

Other observations

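Lars2, which encodes the mitochondrial leucyl-tRNA synthetase and was chosen after its values were seen, had 411 to 12068 units (median 2172) in high and 168 to 6888 (median 262) in low cells of the medium chip. On the small chip it had 1496 to 18311.5 (median 6933) in high and 417 to 2572 (median 1288) in low spike-in cells. The log2 ratios were 1.496 and 2.778, and 3.16 on the large chip.

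Within the high spike-in cells the number of genes above 0 was lower where the share was higher (Spearman's rho -0.84 over 23 medium and -0.84 over 27 small cells), measures that share the same depth. Across 6147 genes the log2 ratio on the medium and small chips was weakly related to median transcript length (rho 0.07 and 0.10), GC content (rho 0.06 and 0.01), the longest purine-only or pyrimidine-only run (rho 0.09 and 0.09) and the level in low spike-in cells of the large chip (rho -0.16 and -0.18), where genes share cells and depth.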
